A study of Mus musculus with 5 samples.

Results

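The Wnt ligand genes described here are Wnt3, Wnt3a, Wnt4, Wnt5a, Wnt5b, Wnt6, Wnt8a, Wnt11, Wnt2b and Wnt7b. They were taken by symbol from the gene list that all 5 libraries share, and make up 10 of the 19 Wnt genes among 32285 annotated genes. The libraries held mouse epiblast stem cells (EpiSCs), a pluripotent line derived from the epithelium that gives rise to the embryo proper, after 3 days of differentiation. All 5 cultures were in N2B27, a serum-free medium, with 1 µM of the GSK3 inhibitor CHIR (spelled CHIR99201 in the labels) and 8 ng/ml BMP. They differed in FGF signaling: 1 received the FGF receptor inhibitor AZD4547 at 30 nM (FGFRi), and the other 4 received 0, 0.75, 3 or 12 ng/ml FGF2. The labels give no FGF2 dose for the FGFRi culture. Each condition was 1 library of 1 cell line, so no p-value was computed, and intervals here are 95% exact intervals that cover counting error only.

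Wnt proteins are lipid-modified secreted ligands that bind Frizzled receptors together with co-receptors. Some members, among them Wnt3, Wnt3a and Wnt8a, are best known for the canonical branch, in which GSK3 is held off β-catenin and TCF/LEF factors switch on their targets. Wnt5a, Wnt5b and Wnt11 are best known for branches that steer cell polarity and movement. In the gastrulating mouse embryo Wnt3 is needed to form the primitive streak, and Wnt3a and Wnt5a to lay down the tail end of the body axis. CHIR inhibits GSK3 inside the cell, below the receptor, and was present in all 5 cultures.

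Of 15375 barcodes, the 10653 with at least 2500 genes and at most 10% mitochondrial UMIs (unique molecular identifiers, each standing for 1 captured transcript) were retained, between 1696 and 2725 in each library. Their median UMI counts per cell lay between 24408 with the FGFRi and 29661.5 at 0 ng/ml, and 7 barcode sequences occurred in more than 1 library. Levels are UMIs of a gene summed over the cells of a library in CPM (counts scaled to 1000000 UMIs). In such sums, fewer cells with a transcript and less transcript per cell cannot be told apart. Shares of cells with a UMI follow further down, but at low counts per cell they depend on the level too and do not settle this. Reads came from the 3′ ends of transcripts, so a longer gene does not gain counts by its length as it would in full-length data, although capture can still differ between genes. In the FGFRi library the summed level of 8 mesenchyme and extraembryonic mesoderm markers was 5267 CPM, against 1348, 435, 296 and 359 CPM at 0, 0.75, 3 and 12 ng/ml. The sum of 11 surface and extraembryonic ectoderm markers went from 2745 to 2491, 1909, 1165 and 1085 CPM. Krt18 and Krt8 weighed most in it, at 1350 and 942 CPM with the FGFRi. Of its 10 markers with 5 CPM or more, 5 were at least 2-fold lower at 12 ng/ml than with the FGFRi. Only Cdx2 was at least 2-fold higher, at 4.64 CPM with the FGFRi and 109, 188, 218.5 and 185 CPM at the rising doses. Primitive streak and nascent mesoderm markers had rising sums, from 5.77 to 57.3, 186, 406 and 431 CPM, and so had presomitic mesoderm markers, from 36.2 to 149, 321, 621 and 712 CPM. These marker sums moved along the series with the Wnt levels below, and the part of cell composition in them was not tested beyond the cadherin classes. Epiblast markers summed to 59.9 CPM with the FGFRi and 112 CPM at 12 ng/ml, and 5 endoderm markers to 3.47 CPM at most. Among the epiblast markers, Pou5f1, Utf1, Dnmt3b and Slc7a3 were at least 2-fold higher at 12 ng/ml than with the FGFRi. Otx2 (12.0 and 1.88 CPM) and Fgf5 (1.40 and 0.198 CPM) were lower at 12 ng/ml.

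The sequences just before the annotated starts of 3 of these genes are shown because these genes passed the rule of size described below along the FGF2 doses, Wnt3a and Wnt5b as higher and Wnt6 as lower. Each is the 250 bases before a RefSeq transcript start on GRCm38.p6, written 5′ to 3′ on the gene's own strand, with every CG dinucleotide in capitals. They lie at chr11:59290752-59291001 on the minus strand for Wnt3a, at chr6:119544348-119544597 on the minus strand for Wnt5b and at chr1:74771642-74771891 on the plus strand for Wnt6.
Wnt3a: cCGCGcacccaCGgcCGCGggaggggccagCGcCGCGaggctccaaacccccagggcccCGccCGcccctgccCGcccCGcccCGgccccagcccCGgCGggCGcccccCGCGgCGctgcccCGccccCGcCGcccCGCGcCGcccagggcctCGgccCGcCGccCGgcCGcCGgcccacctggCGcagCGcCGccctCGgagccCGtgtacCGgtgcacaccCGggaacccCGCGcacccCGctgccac
Wnt5b: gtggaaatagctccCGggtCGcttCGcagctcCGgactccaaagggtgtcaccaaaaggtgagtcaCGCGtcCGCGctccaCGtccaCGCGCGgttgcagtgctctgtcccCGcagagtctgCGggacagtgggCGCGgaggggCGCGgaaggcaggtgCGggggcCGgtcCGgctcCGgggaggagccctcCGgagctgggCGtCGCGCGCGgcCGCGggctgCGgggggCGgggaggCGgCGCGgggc
Wnt6: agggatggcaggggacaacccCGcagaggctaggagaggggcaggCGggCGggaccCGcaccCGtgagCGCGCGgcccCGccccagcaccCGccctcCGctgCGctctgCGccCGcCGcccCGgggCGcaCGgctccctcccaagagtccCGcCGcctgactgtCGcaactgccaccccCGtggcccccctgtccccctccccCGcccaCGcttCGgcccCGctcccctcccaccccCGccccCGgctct

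These stretches held 41, 35 and 28 CG dinucleotides, against a median of 6 over the 32851 promoter windows of the same table. RefSeq windows of 300 bases were found for 7 of the 10 members, at 10 starts. At the outermost start of each, G and C made up between 65.7% (Wnt3) and 86.3% (Wnt3a) of the window, against a median of 52.7% over all windows. The share was above that median in members that were lower at high FGF2 doses (Wnt4 with 84.3% and Wnt6 with 76.7%) and in those that were higher (Wnt3a with 86.3% and Wnt5b with 78.0%). The windows were also searched on both strands for the T-box letters TCACACCT, the TCF/LEF letters CTTTGAT and the CDX letters TTTATG, which 1.28%, 3.73% and 11.9% of all windows hold. The T-box letters were in none of the 10 windows.

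A TCF/LEF match lay at an inner start of Wnt5b, beside a CDX match, and at the outer start of Wnt11. Both stretches are shown, with the matched letters in capitals, as the only places among the members' windows where the TCF/LEF letters were found. The Wnt5b stretch is at chr6:119449387-119449636 on the minus strand. The Wnt11 stretch is at chr7:98834862-98835111 on the plus strand, and holds the match as its reverse complement ATCAAAG.
Wnt5b inner start: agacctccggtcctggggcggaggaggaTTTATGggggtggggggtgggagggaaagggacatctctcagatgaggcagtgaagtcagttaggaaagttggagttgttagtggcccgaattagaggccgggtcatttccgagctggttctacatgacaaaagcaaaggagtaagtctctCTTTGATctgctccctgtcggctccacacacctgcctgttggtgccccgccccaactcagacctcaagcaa
Wnt11: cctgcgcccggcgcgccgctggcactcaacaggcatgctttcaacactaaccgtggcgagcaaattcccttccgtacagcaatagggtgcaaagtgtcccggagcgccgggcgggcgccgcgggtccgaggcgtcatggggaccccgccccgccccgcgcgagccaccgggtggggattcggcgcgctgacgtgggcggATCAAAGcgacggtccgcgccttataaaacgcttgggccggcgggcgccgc

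A match is a run of letters, and no binding was measured in these libraries. The genes themselves lie on GRCm38 at chr11:59248033-59290752 (Wnt3a, ENSMUSG00000009900), chr11:103774150-103817957 (Wnt3, ENSMUSG00000000125), chr6:119432531-119544347 (Wnt5b, ENSMUSG00000030170), chr14:28504750-28527448 (Wnt5a, ENSMUSG00000021994), chr4:137277489-137299726 (Wnt4, ENSMUSG00000036856) and chr1:74771892-74785322 (Wnt6, ENSMUSG00000033227). Wnt11 (ENSMUSG00000015957) is at chr7:98835112-98855195, Wnt7b (ENSMUSG00000022382) at chr15:85535437-85582473 and Wnt2b (ENSMUSG00000027840) at chr3:104945272-104961921. The annotation puts 3 members beside another Wnt gene with no protein-coding gene between them: Wnt6 is 6193 bases upstream of Wnt10a on the same strand, Wnt3a lies head to head with Wnt9a at 16175 bases, and Wnt3 head to head with Wnt9b at 24328 bases. Wnt2b overlaps a transcript on its own strand (Gm43846), so its few UMIs are uncertain, and Wnt6, Wnt7b and Wnt5a overlap antisense transcripts. On the opposite strand, Wnt5b overlaps the protein-coding gene Fbxl14 and Wnt11 the pseudogene Gm8398.

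The makeup of the Wnt transcripts differed more along the series than their total did. The summed level of all 19 Wnt genes was 469 CPM with the FGFRi and 395, 361, 307 and 282 CPM at 0, 0.75, 3 and 12 ng/ml FGF2. Wnt4 and Wnt6 together made up 67.5% of the Wnt UMIs with the FGFRi and 65.8%, 51.5%, 29.3% and 26.1% at the rising doses. Wnt5a and Wnt5b together went the other way, from 9.38% with the FGFRi to 23.4%, 38.7%, 59.5% and 60.0%. Thus Wnt4 and Wnt6 were the larger pair up to 0.75 ng/ml and Wnt5a and Wnt5b from 3 ng/ml on. The 10 members together accounted for 90.6% to 97.6% of all Wnt UMIs.

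**Figure D1:**
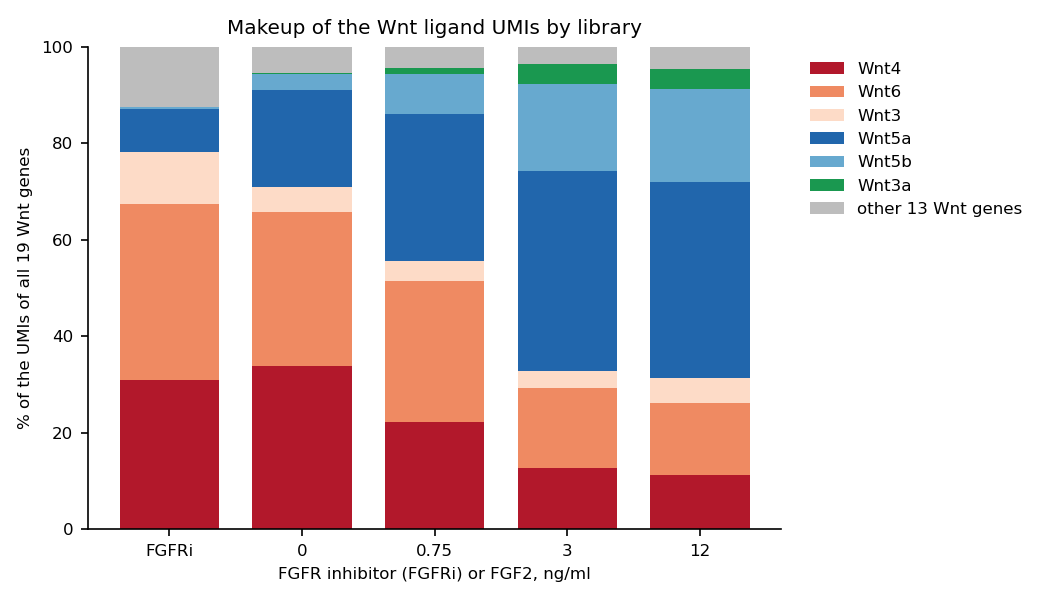
Share of each gene in the UMIs of all 19 Wnt genes (y axis, percent) in the 5 libraries (x axis, FGFRi or FGF2 in ng/ml). Wnt4 and Wnt6 fill 67.5% of the bar with the FGFRi and 26.1% at 12 ng/ml, while Wnt5a and Wnt5b fill 9.38% and 60.0%.

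Wnt3 and Wnt3a, canonical ligands that act one after the other in the embryo's streak, had opposite profiles. Wnt3 was at 50.02 CPM with the FGFRi, then at 20.6, 14.9, 10.8 and 14.6 CPM at 0, 0.75, 3 and 12 ng/ml. The FGFRi library was the highest and the 3 ng/ml library the lowest, and only the 0.75 and 12 ng/ml libraries could not be separated by their counting intervals. Wnt3 was 2.43-fold lower at 0 ng/ml than with the FGFRi (interval 2.26 to 2.60), 1.41-fold lower at 12 than at 0 ng/ml, and 1.35-fold higher at 12 than at 3 ng/ml.

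Wnt3a had 0 UMIs among the 1701 cells of the FGFRi library, which allows up to 0.0627 CPM. It was at 1.23, 4.54, 12.7 and 11.4 CPM at 0, 0.75, 3 and 12 ng/ml, from 70, 370, 818 and 810 UMIs. The level at 0 ng/ml was thus 19.6-fold that allowance, without the counting error of the 70 UMIs. The level at 12 ng/ml was 9.29-fold that at 0 ng/ml (interval 7.27 to 12.0). The dose steps were 3.68-fold (2.85 to 4.83), then 2.79-fold (2.47 to 3.16), and the level was 1.11-fold lower at 12 than at 3 ng/ml.

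Wnt8a, another canonical ligand of the early streak, was low throughout. It was at 0.0627 CPM (3 UMIs) with the FGFRi and at 0.458, 1.39, 2.21 and 2.36 CPM at the rising doses. The ratio of 0 ng/ml to the FGFRi was 7.30 (2.24 to 37.7) and that of 12 to 0 ng/ml 5.16 (3.40 to 8.12), with the 3 and 12 ng/ml libraries not separated. Wnt2b, also a canonical ligand, had 6 to 11 UMIs in each library, or 0.110 to 0.194 CPM, and no neighboring pair of libraries in its order could be told apart.

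Wnt4 and Wnt6, both found in epithelia and known from kidney and ectoderm development, were the most abundant members in the FGFRi library. Wnt4 was at 145 CPM with the FGFRi, then at 134, 80.3, 39.2 and 31.7 CPM at 0, 0.75, 3 and 12 ng/ml. It was lower at each dose step, 4.23-fold in all between 0 and 12 ng/ml (4.04 to 4.44), while the FGFRi library was only 1.09-fold above that at 0 ng/ml (1.05 to 1.12). Wnt6 was at 172 CPM with the FGFRi, then at 126, 106, 50.9 and 42.0 CPM.

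For Wnt6 the level was 1.36-fold lower at 0 ng/ml than with the FGFRi (1.32 to 1.41) and 3.00-fold lower at 12 than at 0 ng/ml (2.87 to 3.13). In both genes the largest of the dose steps was that from 0.75 to 3 ng/ml, at 2.05-fold for Wnt4 (1.95 to 2.14) and 2.07-fold for Wnt6 (1.99 to 2.16). Wnt7b, a ligand of epithelia and of placental development, was at 4.27 CPM with the FGFRi, then at 1.58, 1.45, 0.774 and 1.39 CPM at the rising doses. Its FGFRi library was 2.69-fold above that at 0 ng/ml (2.09 to 3.49), and its 3 ng/ml library was the lowest, 1.87-fold below that at 0.75 ng/ml (1.33 to 2.66) and 1.79-fold below that at 12 ng/ml (1.26 to 2.57).

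Among the ligands known for polarity and movement, Wnt5a was at 42.3 CPM with the FGFRi, then at 79.2, 110, 127 and 115 CPM at 0, 0.75, 3 and 12 ng/ml. It was abundant in every library: the ratio of 0 ng/ml to the FGFRi was 1.87 (1.77 to 1.97) that of 12 to 0 ng/ml 1.45, and that of 12 ng/ml to the FGFRi 2.71 (2.58 to 2.85). Its close relative Wnt5b was at 1.69 CPM with the FGFRi, then at 13.1, 30.0, 55.4 and 54.5 CPM. Wnt5b was 7.74-fold higher at 0 ng/ml than with the FGFRi (6.15 to 9.86) and 4.16-fold higher at 12 than at 0 ng/ml (3.84 to 4.50), and the 3 and 12 ng/ml libraries differed by less than counting error.

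Wnt11, known from heart and kidney development, had a profile of its own in this branch. It was at 9.79 CPM with the FGFRi, at 1.73 CPM at 0 ng/ml, and at 0.282, 0.464 and 0.692 CPM at the higher doses. The FGFRi level was 5.67-fold that at 0 ng/ml (4.55 to 7.13), and the latter 6.12-fold that at 0.75 ng/ml. Among the 3 highest doses the intervals of neighboring ratios included 1, but the level at 12 ng/ml (interval 0.512 to 0.915 CPM) lay above that at 0.75 ng/ml (0.179 to 0.423 CPM).

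**Figure D2:**
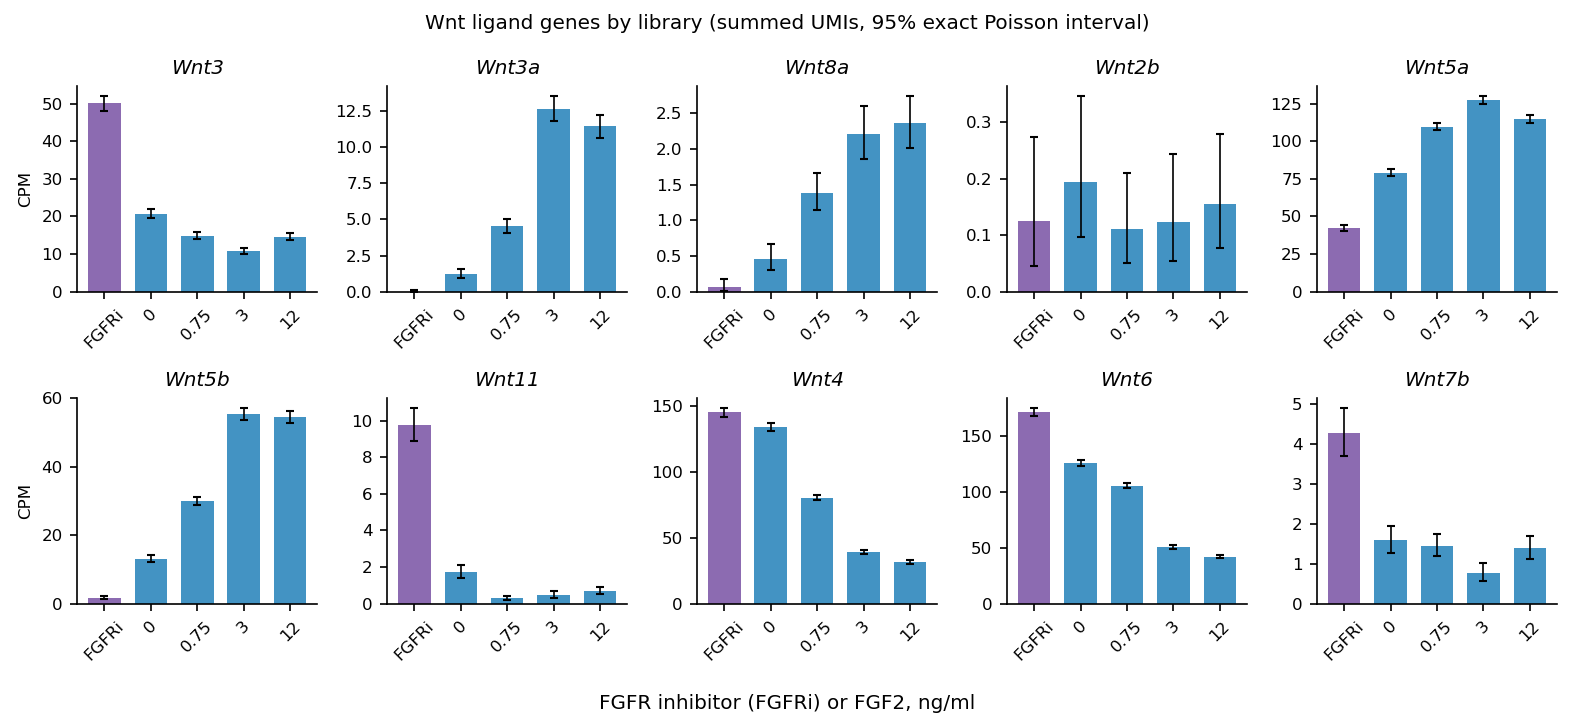
Level of each of the 10 genes (y axis, CPM, its own scale in each panel, starting at 0) in the 5 libraries (x axis), 1 library per condition, with 95% exact Poisson intervals as bars. Wnt3, Wnt11 and Wnt7b are highest with the FGFRi, Wnt3a and Wnt5b are highest at 3 and 12 ng/ml, and Wnt4 and Wnt6 are lower at each dose step.

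A rule of size stood in for a test, and called a gene whose ratio was 2 or more if 1 of its libraries had 5 CPM or more. Between the FGFRi and 0 ng/ml, 6 members reached 5 CPM, and Wnt5b was called higher while Wnt3 and Wnt11 were called lower at 0 ng/ml. Of the 10100 genes that could be called in that comparison, 2.98% were higher and 6.07% lower. Between 0 and 12 ng/ml, Wnt3a and Wnt5b were called higher and Wnt4 and Wnt6 lower, out of 6 members, against 2.23% and 4.69% of 9931 genes.

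The steps between doses divided these differences. From 0 to 0.75 ng/ml, Wnt5b alone of 5 members was called, as higher, beside 0.347% of 9810 genes called higher and 1.67% called lower. From 0.75 to 3 ng/ml, Wnt3a was called higher and Wnt4 and Wnt6 lower, beside 0.39% of 9744 genes higher and 0.729% lower. From 3 to 12 ng/ml none of 6 members was called, where 0.0725% of 9653 genes were called in each direction. A stricter ratio of 3 left 0 members called between 0.75 and 3 ng/ml, and leaving out the 5% of cells with the most UMIs took Wnt4 below the ratio of 2 in that step. Among the 9 other Wnt genes, Wnt9a (4.88-fold) and Wnt10b (2.48-fold) were called lower at 0 ng/ml than with the FGFRi, of 3 that could be called. Between 0 and 12 ng/ml only 1 of the 9 had 5 CPM in either library and it was not called, while Wnt10b, singled out after its values were seen and just under that limit, was 15.9-fold lower at 12 ng/ml (9.99 to 26.9), at 4.28 and 0.268 CPM.

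The level of each member was then set against the cells' cadherins. Cells with at least 1 UMI of Cdh1 (E-cadherin, the adhesion molecule of epithelia) and none of Cdh2 (N-cadherin, that of many mesenchymal and neural cells) are called Cdh1-only cells here, and the reverse Cdh2-only cells. There were 617, 734, 1054, 443 and 340 Cdh1-only cells in the FGFRi, 0, 0.75, 3 and 12 ng/ml libraries, and 625, 486, 1058, 1146 and 1412 Cdh2-only cells. Cells with UMIs of both cadherins are in neither class, and held 20.4% to 27.8% of a library's UMIs. Median UMI counts of the 2 classes were close within each library, at 24053 and 23608 with the FGFRi and 27602 and 26675 at 12 ng/ml. Cells with both cadherins were deeper than either class in every library, with medians of 31058 with the FGFRi and 39233, 32818.5, 32311 and 31273 at the rising doses. No doublet caller was run, and the part of depth and doublets in the levels of these cells was not tested. Between 10.9% and 24.7% of the cells of a class rested on a single cadherin UMI. As a check, 10 or 11 of 11 surface and extraembryonic ectoderm markers were higher in the Cdh1-only cells, with sums of 2955 to 4823 CPM against 316 to 601 CPM, whereas presomitic mesoderm markers summed to 17.6 to 196 CPM in Cdh1-only and 62.1 to 913 CPM in Cdh2-only cells, although 4 of 7 were higher in Cdh1-only cells with the FGFRi. The sums of the 8 mesenchyme markers went against the usual reading of Cdh2 at every FGF2 dose. With the FGFRi they were 3155 and 6362 CPM in Cdh1-only and Cdh2-only cells, with 1 of 8 markers higher in Cdh1-only cells. They were larger in Cdh1-only cells at 0 (978 and 721 CPM), 0.75 (452 and 229 CPM), 3 (254 and 228 CPM) and 12 ng/ml (405 and 244 CPM). The single markers were split, with 4 of 8 higher in Cdh1-only cells at each of these doses. For the 4 neurectoderm markers the larger sum changed sides. Cdh1-only cells held it at 3 ng/ml (51.6 against 23.1 CPM), where 2 of 4 markers were higher in them. They also held it at 12 ng/ml (41.9 against 13.6 CPM), where all 4 were. In Cdh2-only cells the sum was larger with the FGFRi (30.2 against 4.42 CPM) and without FGF2 (40.4 against 17.5 CPM). The sums were close at 0.75 ng/ml (33.7 CPM in Cdh1-only, 35.0 CPM in Cdh2-only cells). The classes are therefore named by their cadherin alone.

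Wnt4 and Wnt6 were higher in Cdh1-only cells in all 5 libraries. Wnt4 was at 245, 206, 144, 94.5 and 89.8 CPM in Cdh1-only cells with the FGFRi and at FGF2 doses of 0, 0.75, 3 and 12 ng/ml, and at 59.9, 32.1, 25.7, 22.2 and 17.3 CPM in Cdh2-only cells. The lowest Cdh1-only level was above the highest Cdh2-only level. The ratios lay between 4.09 (FGFRi) and 6.44 (0 ng/ml).

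Wnt6 was at 280, 195, 195, 138 and 132 CPM in Cdh1-only cells, in the same order of libraries, and at 71.4, 26.3, 17.0, 13.4 and 11.6 CPM in Cdh2-only cells. Its ratio was 3.92 with the FGFRi, 7.40 at 0 ng/ml and 11.5, 10.3 and 11.4 at the higher doses. Wnt10a, the neighbor of Wnt6 on the chromosome and a gene often paired with it in ectoderm, was also higher in Cdh1-only cells, by 3.102-fold to 13.0-fold. Wnt7b was higher there too, by 7.20-fold with the FGFRi, 3.90-fold at 3 ng/ml (1.78 to 8.87) and 31.1-fold at 12 ng/ml. Its ratio of 45.7 at 0 ng/ml rested on a single UMI in the Cdh2-only cells (interval 7.94 to 1830).

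Wnt3 shared this preference, but with the FGFRi hardly so. It was at 56.4 CPM in Cdh1-only and 39.2 CPM in Cdh2-only cells of the FGFRi library, a ratio of 1.44 (1.30 to 1.60). At 0, 0.75, 3 and 12 ng/ml it was at 24.9, 24.4, 18.9 and 29.0 CPM in Cdh1-only cells and at 4.51, 2.67, 4.83 and 7.21 CPM in Cdh2-only cells. The ratios there were 5.51, 9.14, 3.91 and 4.02, so the Cdh2-only cells of the FGFRi library stood apart from those of the other 4. Wnt8a was higher in Cdh1-only than in Cdh2-only cells at 0.75, 3 and 12 ng/ml, by 5.27-fold (2.82 to 10.7), 2.75-fold (1.67 to 4.53) and 2.75-fold (1.71 to 4.365). Its Cdh1-only level was not the highest at 3 and 12 ng/ml, at 2.79 and 3.30 CPM. In cells with both cadherins it was at 4.335 and 3.90 CPM there, and in cells with neither at 5.66 CPM (16 UMIs) at 12 ng/ml.

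Between Cdh1-only and Cdh2-only cells, Wnt3a had the reverse preference to its relative Wnt3. At 0 ng/ml it had 0 UMIs in 734 Cdh1-only cells and 54 UMIs in 486 Cdh2-only cells (3.58 CPM). With the 0 read as 3 counts the difference is 28.0-fold, without the counting error of the 54 UMIs. At 0.75, 3 and 12 ng/ml Wnt3a was at 0.524, 3.095 and 3.995 CPM in Cdh1-only cells and at 8.05, 14.9 and 12.2 CPM in Cdh2-only cells. The ratio was 15.4 (9.28 to 27.3), 4.81 (3.48 to 6.82) and 3.06 (2.22 to 4.34) at these doses. Cells with both cadherins were not low in Wnt3a at the higher doses. In them it was at 0.948, 5.77, 16.65 and 14.1 CPM at 0, 0.75, 3 and 12 ng/ml. With classes set after thinning every cell to 5000 UMIs, the log2 ratio at 3 ng/ml was 0.745, below the ratio of 2, and Wnt3a was then no longer called.

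Wnt5a and Wnt5b were higher in Cdh2-only cells at the low end of the series and closer between the classes at the high end. Wnt5a was at 6.93, 46.7, 81.5, 125 and 131 CPM in Cdh1-only cells with the FGFRi and at FGF2 doses of 0, 0.75, 3 and 12 ng/ml, and at 75.9, 116, 127, 127 and 108 CPM in Cdh2-only cells. Its Cdh2-only over Cdh1-only ratio was 11.0 (9.07 to 13.3), 2.48, 1.56, 1.01 and 0.822 (0.772 to 0.875), and the interval at 3 ng/ml included 1. Wnt5b was at 0.815, 4.14, 12.4, 27.6 and 43.0 CPM in Cdh1-only cells and at 2.79, 28.1, 42.7, 58.4 and 50.5 CPM in Cdh2-only cells. In cells with both cadherins Wnt5b was at 1.53, 11.3, 40.15, 71.4 and 71.6 CPM, above both classes at 3 and 12 ng/ml.

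The Wnt5b ratio was 3.42 with the FGFRi and 6.79, 3.45, 2.12 and 1.18 at the rising doses. Wnt11 was 1.46-fold higher in Cdh1-only cells with the FGFRi and 2.25-fold at 0 ng/ml, and was not separated at the higher doses. With the FGFRi its level was highest in cells with both cadherins, at 15.8 CPM, against 8.96 CPM in Cdh1-only and 6.13 CPM in Cdh2-only cells. By the rule of size over libraries (at least 5 CPM in either class, in at least 3 libraries, and a ratio of at least 2 the same way in each of them), 6 members could be called. Wnt3a was called higher in Cdh2-only cells and Wnt4 and Wnt6 in Cdh1-only cells, beside 1.75% and 3.19% of 9990 genes. Wnt3 failed through the FGFRi library, Wnt5a through the 0.75, 3 and 12 ng/ml libraries, and Wnt5b through the 12 ng/ml library alone.

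**Figure D3:**
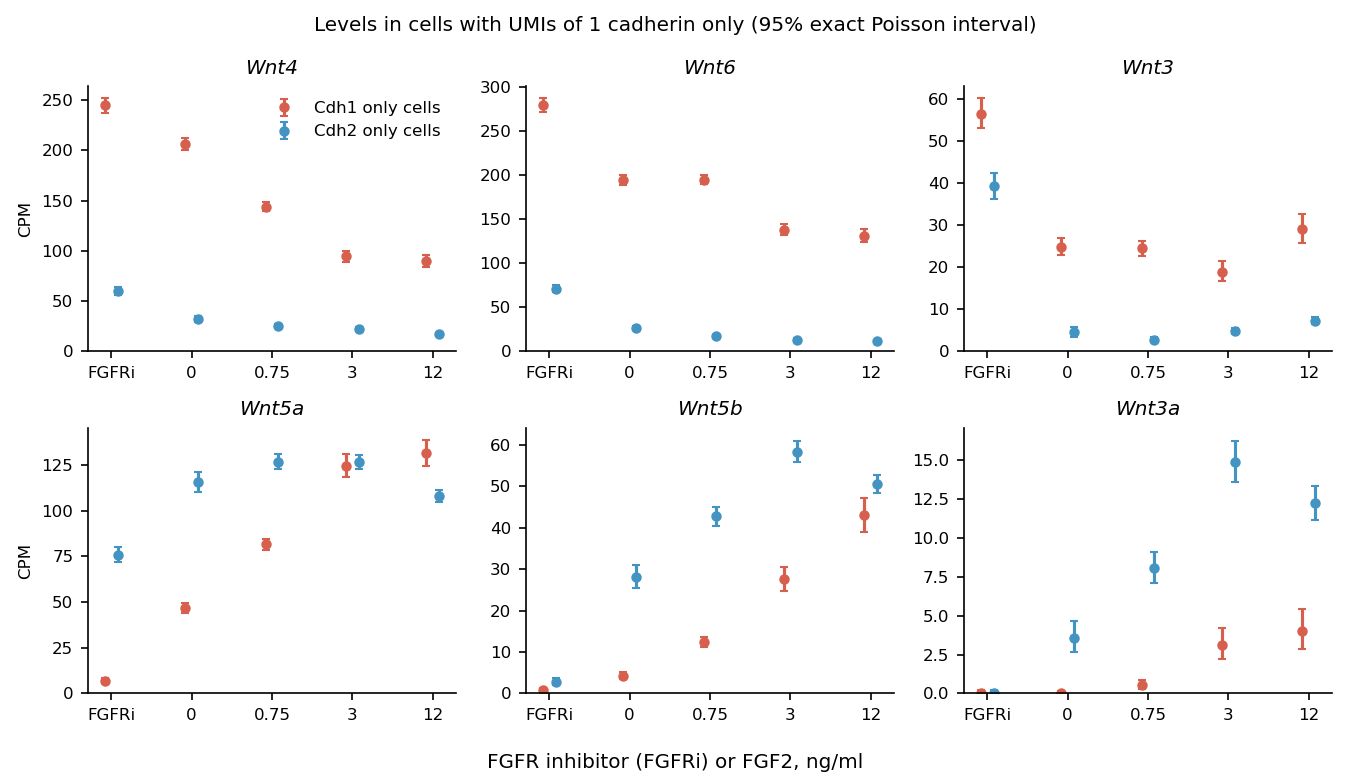
Levels (y axis, CPM, own scale per panel) of 6 Wnt genes in Cdh1-only cells (red) and Cdh2-only cells (blue) of the 5 libraries (x axis), with 95% exact Poisson intervals. Wnt4, Wnt6 and Wnt3 are higher in Cdh1-only cells, and the Wnt5a points meet at 3 ng/ml, where the ratio is 1.01.

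The share of a library's UMIs from Cdh1-only cells was 35.9% with the FGFRi and 41.2%, 37.5%, 20% and 14.1% at 0, 0.75, 3 and 12 ng/ml. To see what this shift alone would give, each class was kept at its 0 ng/ml level while the shares were set to those at 12 ng/ml. For Wnt3 this gave a log2 difference of -0.52, against -0.50 observed, and the levels within classes alone gave 0.02. That 0.02 is a net of opposite differences. Wnt3 was higher at 12 than at 0 ng/ml in Cdh1-only cells (1.17-fold, 1.01 to 1.34) and Cdh2-only cells (1.60-fold, 1.22 to 2.11). It was lower in cells with both cadherins (29.97 and 23.71 CPM at 0 and 12 ng/ml) and with neither (19.16 and 10.25 CPM). For Wnt6 the shares gave -0.70 and the levels -0.73 of an observed -1.59, and for Wnt4 the shares gave -0.67 and the levels -1.37 of -2.08.

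For the members that were higher at 12 ng/ml, the levels gave more than the shares. For Wnt3a the shares gave a log2 difference of 0.89 and the levels 2.91, against 3.22 observed. For Wnt5b the shares gave 0.61 and the levels 2.01, against 2.06 observed. For Wnt5a the values were 0.32 and 0.62, against 0.53. Between the FGFRi and 0 ng/ml the shares alone gave log2 differences of only 0.04 for Wnt3, 0.05 for Wnt11 and -0.11 for Wnt5b, where -1.28, -2.50 and 2.95 were observed. Cadherin classes are broad, and shifts of cell types inside a class count as levels here.

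**Figure D4:**
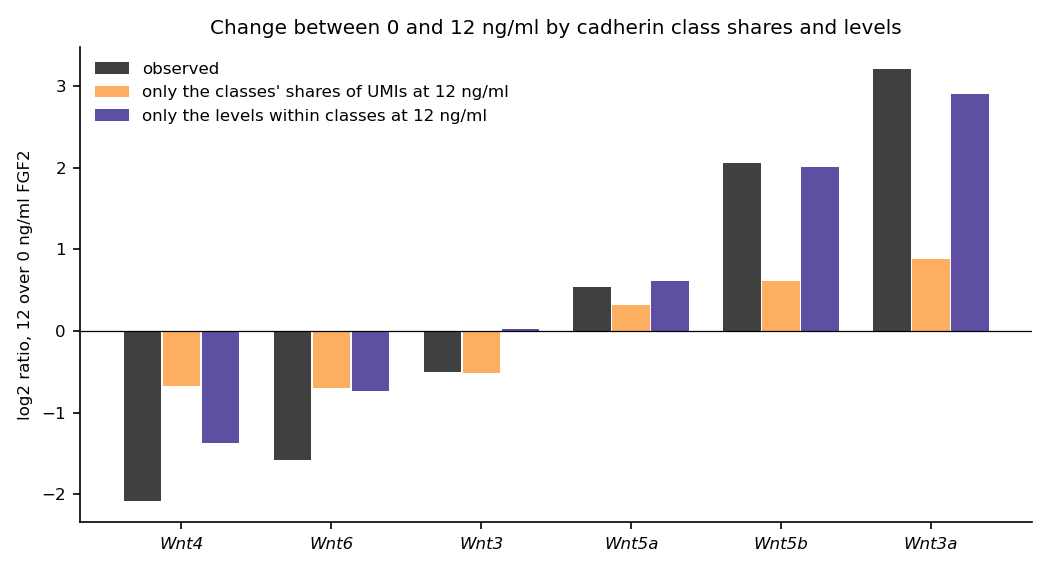
Log2 ratio of 12 over 0 ng/ml FGF2 (y axis) for 6 Wnt genes (x axis): as observed (black), with only the cadherin classes' shares of UMIs changed (orange) and with only the levels within classes changed (purple). The shares alone give -0.52 for Wnt3, close to the observed -0.50, and 0.61 for Wnt5b, where 2.06 was observed.

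Within Cdh1-only cells, Wnt5b was 10.4-fold higher at 12 than at 0 ng/ml (8.30 to 13.1) and Wnt5a 2.81-fold higher (2.59 to 3.05). Within Cdh2-only cells the same 2 ratios were 1.80-fold higher for Wnt5b (interval up to 1.997) and 1.07-fold lower for Wnt5a (1.01 to 1.13). For both genes the intervals of the 2 classes did not overlap, and the ratio was larger in Cdh1-only cells. This was not particular to these genes. The 8 primitive streak and nascent mesoderm markers summed to 15.4 and 235 CPM in Cdh1-only cells at 0 and 12 ng/ml, and to 135.5 and 394 CPM in Cdh2-only cells. The surface and extraembryonic ectoderm sum in Cdh1-only cells was lower at 12 ng/ml, at 3636 and 3084 CPM. The part of cell types inside a class was not tested. Wnt3a was 3.42-fold higher at 12 than at 0 ng/ml in Cdh2-only cells, and Wnt4 was lower in both classes, by 2.30-fold in Cdh1-only and 1.85-fold in Cdh2-only cells. From the FGFRi to 0 ng/ml, Wnt3 was 2.27-fold lower in Cdh1-only and 8.68-fold lower in Cdh2-only cells, and Wnt11 4.998-fold and 7.70-fold lower.

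Shares of cells with a transcript were compared with every cell thinned to 5000 UMIs. Such a share counts cells in which a UMI was seen, which is fewer than the cells that hold the transcript. Free RNA in the droplets can also put a UMI into a cell that does not express the gene, and its level was not estimated, so the share in the lower of the 2 cadherin classes is given for comparison. Wnt3a was seen in 0 of 1701 cells with the FGFRi, thinned or not, which allows a share of cells with a UMI of up to 0.176%. After thinning it was seen in 0.472%, 2.20%, 5.60% and 5.36% of cells at 0, 0.75, 3 and 12 ng/ml. Without thinning the shares at 3 and 12 ng/ml were 24.5% and 22.5%. In the class where it was lower, the Cdh1-only cells, the thinned share was 0% of 734 cells at 0 ng/ml, where the median depth was 27733 UMIs against 29153 in the Cdh2-only cells, and 1.47% at 12 ng/ml.

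Wnt5b was in 0.882% of thinned cells with the FGFRi and in 6.25%, 12.6%, 21.7% and 22.9% at the rising doses. In its lower class, the Cdh1-only cells, the share was 0.324% with the FGFRi and 18.8% at 12 ng/ml. Wnt5a was in 16.5%, 28.9%, 37.3%, 42.1% and 37.9% of thinned cells in the same order. Its share in the Cdh1-only cells of the FGFRi library, at 3.24%, was the lowest in any class. Wnt4 was in 39.7%, 37.4%, 26.9%, 14.2% and 11.1% of thinned cells and Wnt6 in 45.2%, 36.2%, 27.9%, 15.8% and 12.3%. In the Cdh2-only cells, their lower class, the shares were 19.4% and 25.1% with the FGFRi and 6.80% and 4.53% at 12 ng/ml. The part of free RNA in these shares was not tested. Wnt3 was in 19.9% of thinned cells with the FGFRi and in 3.91% to 7.78% elsewhere. Its share in the Cdh2-only cells, its lower class, was 16.2% with the FGFRi and 1.13% to 2.41% elsewhere. For each of these 6 genes the order of the shares followed that of the CPM levels, except that the Wnt5b share was higher at 12 than at 3 ng/ml, from which no order was read. A thinned cell holds so few UMIs of these genes that the share depends largely on the level. The matching orders therefore do not tell fewer cells with a transcript from less transcript per cell.

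At full depth 3 or more of the 10 genes were seen in 52.2% (12 ng/ml) to 59.8% (3 ng/ml) of cells, and none in 2.005% (0 ng/ml) to 4.12% (12 ng/ml). In thinned cells, none of the 10 genes was seen in 22.6% of cells with the FGFRi and in 24.5%, 27.0%, 30.8% and 34.9% at the rising doses, and 3 or more were seen in 10.8% with the FGFRi and 5.86% at 12 ng/ml. Wnt4 and Wnt6 were found in the same cells 1.29 times (FGFRi) to 1.82 times (3 ng/ml) as often as the product of their shares. Wnt3 and Wnt6 were together 1.18 times as often with the FGFRi, and 2.67 and 2.72 times at 3 and 12 ng/ml.

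Wnt3a and Wnt6, in contrast, were together 0.239 times as often as the product at 0.75 ng/ml and 0.213 times at 3 ng/ml, and the interval at 12 ng/ml included 1. Wnt3a and Wnt5b were together 1.79 and 1.42 times as often at 3 and 12 ng/ml. Wnt6 and Wnt5b were together 0.495 times as often at 0 ng/ml, whereas the 12 ng/ml library gave 1.05 with an interval from 0.819 to 1.32. Wnt4 and Wnt5a moved from 0.619 with the FGFRi to 1.21 at 12 ng/ml. These ratios are descriptions over cells of 1 library each. The highest value such a ratio can take is lower where a gene is seen in more cells, so its size is not like for like between libraries. The thinning equalised depth but not cell type, and the part of free RNA was not tested here or in the cadherin and marker classes, where 1 UMI also sufficed.

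Levels of the members were also compared between cells with and without a transcript of a regulator that marks a cell type. In cells with T (Brachyury, the regulator of streak and axial mesoderm), Wnt3a was 28.2-fold, 11.0-fold and 11.7-fold higher than in cells without it at 0.75, 3 and 12 ng/ml. At 0 ng/ml the ratio was 99.9, with 2 Wnt3a UMIs in the cells without T and a lower bound of 26.6. For Tbx6, a regulator of presomitic mesoderm that acts after T, the Wnt3a ratio dropped along the series from 8.73 to 3.06, 1.51 and 1.31. Wnt3a was also higher in cells with Cdx2, a regulator of the tail end of the axis and of trophectoderm, by 6.75-fold at 0.75, 6.17-fold at 3 and 2.39-fold at 12 ng/ml.

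Wnt5b was higher in cells with T as well, by 4.72-fold, 3.46-fold, 2.84-fold and 2.63-fold at 0, 0.75, 3 and 12 ng/ml. Wnt5a followed Cdx2 most, with a ratio of 1.21 in the FGFRi library and ratios of 2.68, 4.25, 3.18 and 1.56 at the rising doses. Wnt6 was lower in cells with T, by 3.12-fold to 3.83-fold between 0 and 12 ng/ml, and lower in cells with Tbx6, by 3.52-fold to 6.76-fold. A cell can hold several of these markers, so the ratios for T, Tbx6 and Cdx2 rest in part on the same cells.

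Wnt4 and Wnt6 were higher in cells with Tfap2a, a regulator of surface ectoderm, in all 5 libraries, by 1.73-fold to 3.50-fold for Wnt4 and 2.79-fold to 3.89-fold for Wnt6. Wnt3 was higher in cells with Pou5f1, the pluripotency regulator Oct4, by 1.44-fold, 2.71-fold, 4.72-fold and 4.20-fold at 0, 0.75, 3 and 12 ng/ml, but not with the FGFRi, where the ratio was 0.961 with an interval that included 1. Wnt8a was higher in cells with Pou5f1 as well, by 5.14-fold, 4.33-fold and 4.79-fold at 0.75, 3 and 12 ng/ml. This was not particular to Pou5f1: at 3 ng/ml the Wnt8a log2 ratio was 2.12 with Pou5f1 and 2.10 with Cdx2. For Wnt3 the log2 ratio with Cdx2 was -1.89 in that library. Cells with Pou5f1 were few, 66 with the FGFRi and 451 at 12 ng/ml. They also had more UMIs, with medians of 28418.5 to 40061 against 24226 to 28886 in the other cells, and the part of depth in these ratios was not tested.

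**Figure D5:**
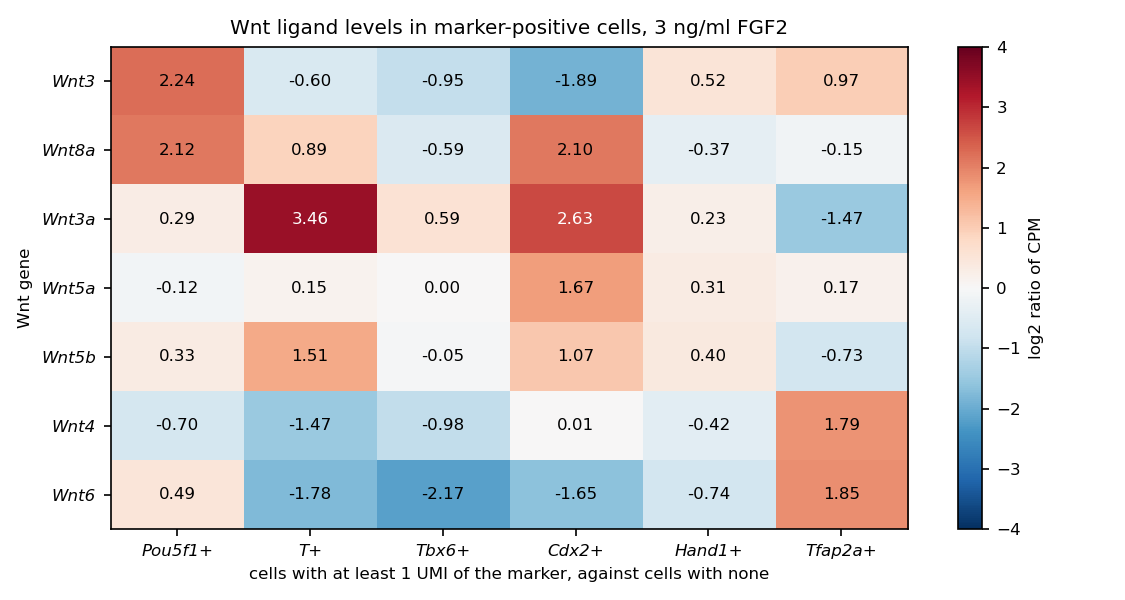
Log2 ratio of the CPM of 7 Wnt genes (y axis) in cells with at least 1 UMI of a marker against cells with none (x axis), in the 3 ng/ml FGF2 library. Red is higher in the cells with the marker: Wnt3a with T at 3.46, Wnt3 with Pou5f1 at 2.24, and Wnt6 with Tfap2a at 1.85, while Wnt6 with Tbx6 is at -2.17.

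Likeness to other genes was measured as Pearson's r of log2(CPM + 1) over 20 profiles, 4 cadherin classes (only Cdh1, only Cdh2, both, neither) in each of 5 libraries, among 7318 genes. The 4 profiles of a library share that library's culture and sequencing, so r is a description. For Wnt3a the closest genes were Arl4d (0.980), Chst7 (0.969) and Naa60 (0.967). For Wnt5b they were Evx1os (0.989), Amph (0.988) and Fgf8 (0.988), the last a ligand of the streak. For Wnt5a they were H1fx (0.941), Lin28b (0.941) and Axin2 (0.937), the last a target and feedback inhibitor of canonical Wnt signaling.

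For Wnt6 the closest genes were Llgl2 (0.986), which acts in epithelial polarity, Mt2 (0.974) and the epithelial keratin Krt18 (0.973). For Wnt4 they were 3830417A13Rik (0.969), Ntf5 (0.965) and Atp11a (0.964), and for Wnt3 Serpinb6a (0.977), Ostf1 (0.970) and Clta (0.970). Among the members, Wnt4 and Wnt6 had an r of 0.929, Wnt3a and Wnt5b 0.919 and Wnt3 and Wnt6 0.855, whereas Wnt3a and Wnt4 had -0.87 and Wnt3 and Wnt3a -0.695.

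Genes around the ligands in the pathway were described by the same rule. Of 3 genes for handling Wnt proteins, Porcn, the enzyme that attaches their lipid, was called lower at 0 ng/ml, at 12.3 and 4.82 CPM (2.55-fold). Wls, the carrier that takes them to the surface, was at 256, 180 and 137 CPM with the FGFRi, without FGF2 and at 12 ng/ml, short of the rule of size. Of 10 Frizzled receptors, 8 could be called, and Fzd10 was higher (8.26 and 36.5 CPM) and Fzd8 lower (15.3 and 5.07 CPM) at 0 ng/ml than with the FGFRi. Of the 6 other receptors and co-receptors, Ror2 was called higher (6.46 and 13.3 CPM) and its relative Ror1 lower (13.7 and 3.33 CPM). Between 0 and 12 ng/ml no gene of these 2 receptor lists was called.

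Among modulators outside the cell, Rspo3, an R-spondin that keeps Frizzled receptors at the surface, was at 24.9, 93.0 and 432 CPM with the FGFRi, without FGF2 and at 12 ng/ml, 3.74-fold and 4.64-fold higher at each step, and was the only one of 4 genes called in its list of 9. Rspo3 is also the presomitic mesoderm marker that weighed most in that sum. Of 13 secreted antagonists, 5 could be called in each comparison. Frzb was at 1.34, 5.95 and 39.2 CPM, 4.45-fold and then 6.58-fold higher. Sfrp1, called between 0 and 12 ng/ml only, was 2.69-fold higher there, at 6.002 and 16.1 CPM. Dkk2 was at 45.4, 8.77 and 0.339 CPM, 5.18-fold and then 25.9-fold lower. Of 8 canonical target genes that could be called, Sp5, Sp8, Ccnd1 and T were higher at 0 ng/ml than with the FGFRi, and Lef1 (2.12-fold), Sp5 (2.89-fold) and T were higher at 12 than at 0 ng/ml. Axin2 was not called in either comparison, but its level was not flat along the doses. It went from 44.2 CPM with the inhibitor to 68.0 CPM without FGF2 and 69.6 CPM at the highest dose. The middle doses lay higher, with 91.7 CPM for 0.75 ng/ml (interval 89.7 to 93.8) and 90.1 CPM for 3 ng/ml (87.8 to 92.4).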

How the data were processed

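Single-cell libraries were made with 10x 3′ chemistry, 1 per condition. Per the labels and file headers, the authors aligned reads to mm10 with Cell Ranger 5.0.1 and deposited filtered matrices of UMI counts per gene and barcode, with no normalization. The paper's methods name an earlier version of Cell Ranger than the matrix header does. The members and gene lists were chosen with earlier results of these data known. Barcodes with at least 2500 genes and at most 10% mitochondrial UMIs were kept, following the study's filter, and no doublet caller was run. The 10653 retained cells held 321559590 UMIs, 95.3% to 97.3% of each library's total. CPM values were computed here from these summed counts. With 1 library per condition no model was fitted and no p-value computed. Intervals are exact Poisson (levels), exact conditional binomial (ratios) and Clopper-Pearson (shares) at 95%, and a count of 0 was read as up to 3 counts. UMIs are counted molecules, and the intervals of levels and ratios treat them as independent, so they do not cover the spread between cells. None of the intervals covers differences between cultures.

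A gene was called by size, at 5 CPM or more in either library and a ratio of 2 or more. Named genes were the 10 members, other Wnt genes and pathway lists past that rule, and, for members of at least 10 CPM, the 3 genes of highest r among genes of at least 20 CPM in 1 or more profiles. Lower mitochondrial limits, all barcodes, TMM scaling, equal cell weights, other thresholds and other class definitions were tried as alternatives. Positions came from GENCODE M21, and 32235 of 32285 gene identifiers matched. Promoter sequences came from RefSeq windows on GRCm38.p6. Python 3.11.15, NumPy 2.4.6, SciPy 1.17.1, pandas 2.3.3, Matplotlib 3.10.9, R 4.3.3 and edgeR 4.0.16 (TMM factors only) were used. The scripts were tested on simulated counts. Protein sequences were not analysed here.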

Additional observations from a re-analysis of the deposited data

Results flagged for a closer look

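The Wnt5a difference between cadherin classes had opposite directions at the ends of the series. Its Cdh2-only over Cdh1-only ratio was 11.0 with the FGFRi, 2.48 at 0 ng/ml and 1.56 at 0.75 ng/ml, each with an interval above 1, and 0.822 at 12 ng/ml, with an interval below 1. The difference between these ratios was not tested, since each condition had 1 library.

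Barcodes left out by the filters, which had few genes or many mitochondrial UMIs, held more UMIs of 2 members, relative to all UMIs, than the retained cells did in some libraries, and fewer of others. Wnt2b was 10.2-fold higher in them with the FGFRi (1.65 to 47.8), 10.8-fold at 0.75 ng/ml (1.89 to 43.4) and 11.2-fold at 3 ng/ml (1.92 to 46.9), each on 3 UMIs. Wnt3a was 1.84-fold higher in them at 0.75 ng/ml (1.13 to 2.86), on 21 UMIs. On more UMIs, Wnt4 was lower in them in all 5 libraries (ratios of 0.512 to 0.689), Wnt6 in 4 (0.490 to 0.676) and Wnt3 in 3 (0.460 to 0.572). The FGFRi library's left-out barcodes held 1 Wnt3a UMI, where the retained cells held 0.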

How the results depend on the processing

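No paired analysis was possible because each condition had 1 library, and for the same reason no replicate could be left out. Of 95 alternative values for members' log2 ratios between libraries, 0 had the other sign and 12 moved out of their counting interval. Of 223 for the cadherin classes, 5 had the other sign (Wnt8a at 0 ng/ml, Wnt5a at 3 ng/ml, whose interval included 1, and Wnt2b) and 38 moved, 24 of these where classes were set after thinning to 5000 UMIs, which assigns fewer cells, and 26 values, from 21 of 45 results, moved by over 1.5 times. Shares of cells with a UMI depend on depth: of 20 alternative values for their change from 0 to 12 ng/ml, at 10000 UMIs or with no thinning, 17 moved, and 2, both of Wnt2b, had the other sign. The number of members called between the FGFRi and 0 ng/ml was 3, and 5 with a minimum of 1 CPM. Between 0 and 0.75 ng/ml it was 1, and 4 with a minimum of 1 CPM, 2 with a ratio of 1.5 and 0 with a ratio of 3. Between 0.75 and 3 ng/ml it was 3, and 0 with a ratio of 3. Between the cadherin classes it was 3, and 5 with a minimum of 1 CPM. Counts that changed by 1.5 times or less are not listed, and some calls were lost at stricter thresholds. Between the FGFRi and 0 ng/ml, Wnt3 (2.43-fold) fell short of a ratio of 3 and Wnt11 (9.79 CPM) of 10 CPM. Between 0 and 12 ng/ml, Wnt6 just missed a ratio of 3, at 0.3334 of its 0 ng/ml level. In the cadherin classes, Wnt3a reached 10 CPM only at 3 and 12 ng/ml, short of 3 libraries. All these changes follow from the thresholds themselves. The share of all genes called at the other thresholds was not computed, so these counts are not read as results about the members. The log2 difference of the summed Wnt level from the FGFRi to 0 ng/ml was -0.25, and -0.19 with at most 5% mitochondrial UMIs, and from 0 to 12 ng/ml it was -0.49, and -0.54 with equal weight for each cell. The cause of these 2 shifts was not tested. Depth limits Wnt3a, Wnt8a, Wnt2b and Wnt11, with 0, 3, 6 and 23 UMIs in their lowest libraries.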
